A study of Rattus norvegicus with 27 samples.

Results

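Aminoacyl-tRNA synthetases are the enzymes that load each amino acid onto its transfer RNA, and a cell that makes much protein uses them heavily. Many of their genes, together with genes for amino acid synthesis and import, are known targets of ATF4, a transcription factor whose own translation increases when the initiation factor eIF2α is phosphorylated. The kinases that do this respond to lack of amino acids (GCN2), stress in the endoplasmic reticulum (PERK) and other stresses, and ATF4 binds with C/EBP partners to a short element in its target genes. In secretory cells such as acinar cells of salivary gland and pancreas, PERK is known as a part of the machinery that fits protein synthesis to the capacity of the endoplasmic reticulum.

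The genes described here were 19 cytosolic tRNA synthetases and 18 other ATF4 target genes, named in a list of 37 genes by their function, with no threshold on their level on the arrays. Of these, 36 genes had a probe set with 1 gene symbol, out of 14217 genes measured on the array, and Pycr1, an enzyme of proline synthesis, was not analysed here. Each gene was read from its brightest probe set by the mean over all 27 arrays. In all 58 probe sets matched the 36 genes, and 21 genes had 1 probe set each.

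The RNA came from parotid acinar cells of Sprague Dawley rats (written Sprauge Dawley in the labels), captured by laser from tissue sections at 9 ages with 3 arrays per age, each from its own litter by the study's methods. They were sampled on days E18 and E20 of gestation, at birth (P0), and after birth on days P2, P5 and P9 and later on days P15, P20 and P25, with no treatment and no altered genotype at any age. The study grouped them, from these same arrays, into embryonic (stage 1: E18, E20 and P0, 9 arrays), early postnatal (stage 2: P2 and P5), middle postnatal (stage 3: P9 and P15) and late postnatal (stage 4: P20 and P25) stages, with 6 arrays in each of stages 2, 3 and 4. Whole heads were cut for the ages through P5 and the gland alone from P9 on, so preparation and age cannot be told apart in stage 3 against stage 2 or in P25 against E18. Levels are the authors' log2 values, where a difference of 1 is a doubling, and they rank ages within a gene and not genes against each other. Since each array holds RNA of many captured cells, fewer cells of a type and less RNA per cell cannot be told apart.

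The element that ATF4 binds was looked for in the promoters of the listed genes, because many of them are known as ATF4 targets. Promoters were those of RefSeq on build GRCr8, from 250 bases before to 50 bases after the start site, and the letters searched were TGATGNAA, the core of the C/EBP-ATF response element (CARE), on both strands. For a gene with several promoters the 1 at the lowest chromosome position was kept, so matches and positions rest on that choice. The kept promoters of Got1 and Aars1 lay wholly within the span of the gene. They were found in 7 of the 17 synthetase promoters in the table (41.2%) and in 3 of the 14 promoters of the other genes (21.4%). The same letters were in 2.24% of the 11733 promoters of genes with a probe set on the array and in 3.98% of all 33469 promoters of that length. Rars1, Gars1, Aldh1l2, Aldh18a1 and Eif4ebp1 had no promoter in the table. A match is a description of the letters and not evidence of binding.

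The windows below are shown because they hold 10 of the 11 matches found, with the matched letters in capitals and 11 bases on each side where the promoter reaches that far. Each is written 5′ to 3′ on the strand of its gene.
Aars1, chr19:55908480-55908509, plus strand: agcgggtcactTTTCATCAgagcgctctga
Cars1, chr1:208225334-208225363, minus strand: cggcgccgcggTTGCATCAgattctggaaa
Iars1, chr17:15193658-15193687, minus strand: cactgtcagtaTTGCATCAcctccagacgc
Mars1, chr7:65023752-65023781, minus strand: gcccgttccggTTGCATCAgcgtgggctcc
Nars1, chr18:60275778-60275807, minus strand: cctaggtgatcTGATGCAAcgcttcagtca
Tars1, chr2:62114811-62114840, minus strand: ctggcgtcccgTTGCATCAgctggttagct
Yars1, chr5:146820190-146820212, plus strand: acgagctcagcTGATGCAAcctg
Chac1, chr3:126795953-126795982, plus strand: cttctccgccgTTGCATCActcctgctagg
Got1, chr1:252330020-252330049, minus strand: cactgcattggTTGCATCAtacaagcctcc
Trib3, chr3:161275536-161275565, minus strand: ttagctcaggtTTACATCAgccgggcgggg

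Of the 11 matches in 10 genes, 9 were the same 8 letters, TTGCATCA or its reverse complement TGATGCAA. The matches of Aars1 and Trib3 shown above differed from them at the free position of the motif. In all, 8 of the 11 matches lay within the stretch from 30 bases before to 50 bases after the start site, and those of Chac1 and Got1 lay further upstream.

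**Figure D1:**
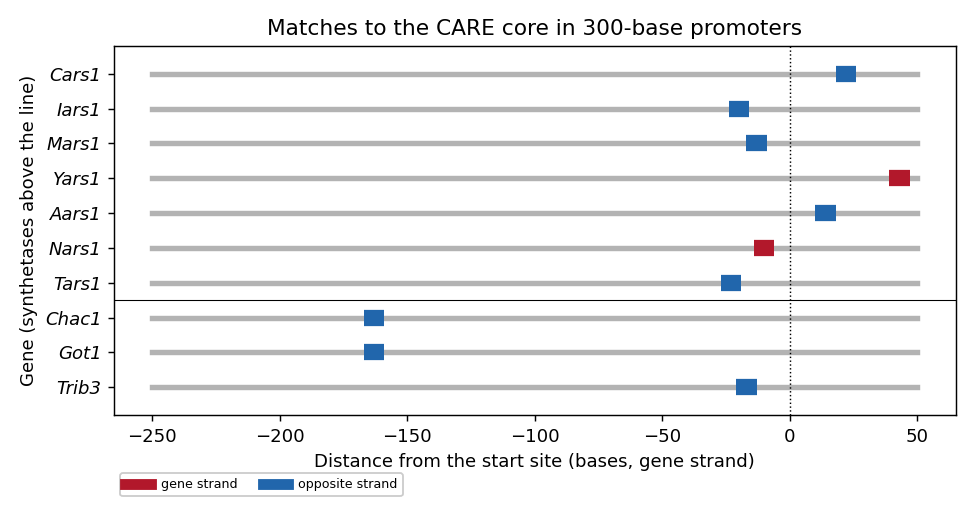
Position of 10 matches to TGATGNAA along the promoter, in bases from the start site (horizontal axis, 250 before to 50 after), with 1 row per gene, synthetases above the line, and colours for the strand that reads TGATGNAA. Of the 10 matches drawn, 8 sit between 30 bases before and 50 bases after the start site.

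Levels differed between the 9 ages for 19 of the 36 genes by the moderated F test of limma, where 24.5% of all 31042 probe sets passed. Among the other ATF4 genes 13 of 17 passed, and among the synthetases 6 of 19. The synthetases that passed were those for leucine (Lars1, adjusted p = 0.0018), glycine (Gars1, 0.0036), arginine (Rars1, 0.0077), alanine (Aars1, 0.016), asparagine (Nars1, 0.019) and cysteine (Cars1, 0.025). The other genes that did not pass were Psat1 and Psph of serine synthesis, Cbs of transsulfuration and Got1, the cytosolic aspartate transaminase. Of the 27 fits that left out 1 array, the F call of Mthfd2 was lost in 15 and that of Vldlr in 12. Dimmer probe sets of Lars1, Gars1, Cars1, Vldlr and Sesn2 did not pass the F test, while those of Gpt2 and Trib3 did.

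The other ATF4 genes covered a wider span of levels over the ages than the synthetases did. The distance from the lowest to the highest age mean ran from 1.19 to 3.31 log2 units among the 17 other genes, with a median of 1.82, and reached 2 log2 units in 8 of them. Among the 19 synthetases it ran from 0.38 to 1.96 log2 units, with a median of 1.11, and reached 2 log2 units in 0 of them. The difference between these medians was not tested. The narrowest span was that of the glutamine enzyme Qars1, whose age means stayed between 11.02 and 11.41.

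The age of the highest mean was P25 for 9 of 17 other genes and for 9 of 19 synthetases. The lowest mean of a gene was most often at P9, where the muscle marker list (10 genes) stood at 9.35 to 12.25. That list stood at 7.85 to 11.08 on the P5 arrays and at 4.67 to 7.40 on the P15 arrays. Its part in the low means was not tested. Among the synthetases the lowest age mean fell at P9 for 6, at P5 for 4 and at P25 for 4 genes, while among the other genes it fell at P9 for 5, at E18 for 4, at P0 for 4 and at P2 for 3 genes, with Eif4ebp1 lowest at E20.

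**Figure D2:**
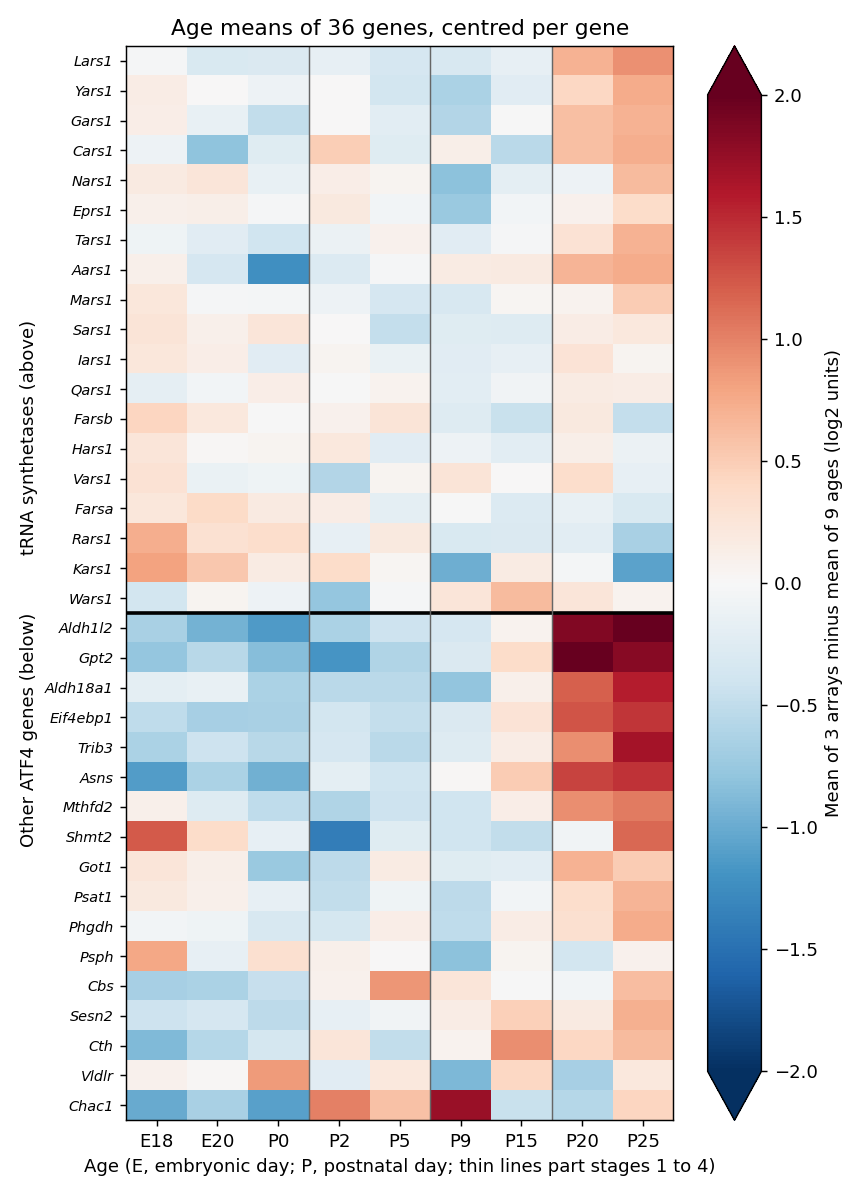
Age means of the 36 genes as log2 units from each gene's mean over the 9 ages, with synthetases above and other ATF4 genes below, each in order of their stage 4 against stage 3 change (Chac1 last), and ages from E18 to P25 in columns (3 arrays per age). Aldh1l2, Gpt2, Asns and Aldh18a1 are high at P20 and P25, and Rars1 is lowest at P25.

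The change with the most calls among these genes lay between the middle and late postnatal stages. In stage 4 against stage 3, 15 of the 36 genes were higher and 0 were lower, where 4.09% of all probe sets were higher and 4.27% lower. At an unadjusted p under 0.05, 20 of the 36 were higher and 0 lower. Over all 31042 probe sets, 4353 were higher and 3240 lower at that level. Ordinary analysis of variance also called 0 of the 36 genes lower. Of the other ATF4 genes 9 of 17 were higher, with a median change of 0.83 log2 units over the 17, and of the synthetases 6 of 19 were higher, with a median change of 0.43. The median over all 31042 probe sets was 0.09. The difference between the lists was not tested. Every stage 4 array lay above every stage 3 array for 7 of the 17 other genes (41.2%) and for 2 of the 19 synthetases (10.5%), where 1.99% of all probe sets did so.

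**Figure D3:**
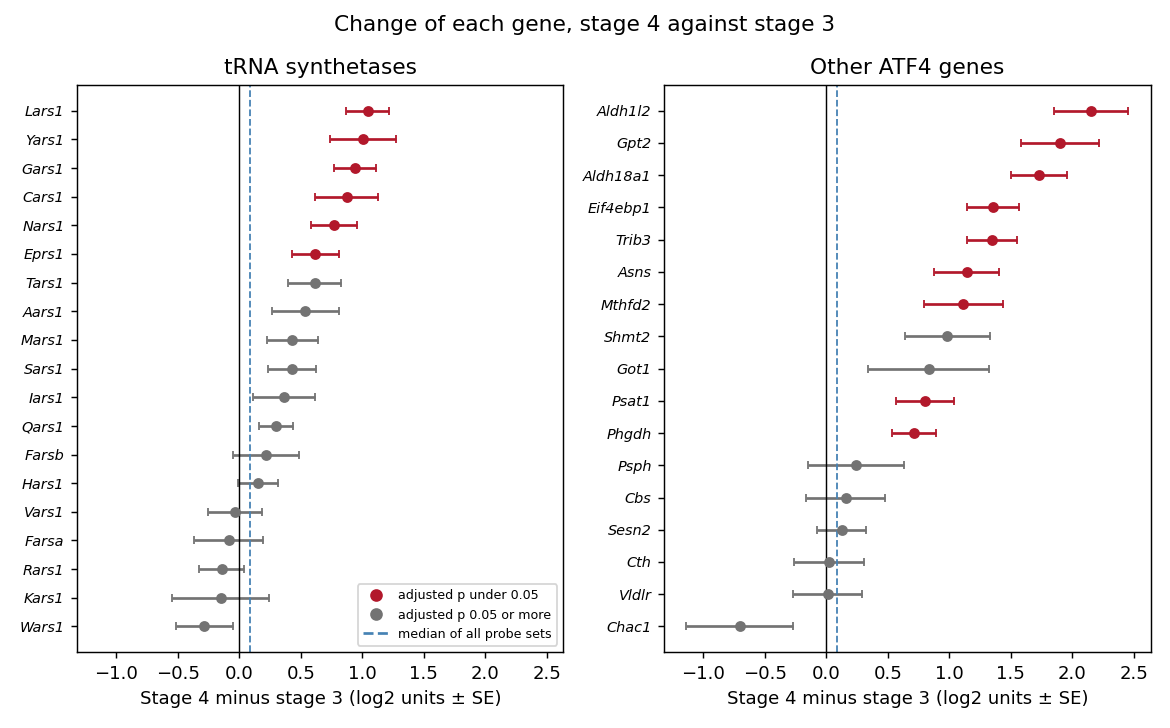
Change of each gene in stage 4 against stage 3 in log2 units (horizontal axis, stage 4 minus stage 3), with bars of 1 standard error of the fit, genes past an adjusted p of 0.05 in red, and the median of all probe sets as a dashed line. Aldh1l2 at 2.15, Gpt2 at 1.90 and Aldh18a1 at 1.73 lie furthest to the right, and no gene past the threshold lies left of 0.

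The 3 largest increases were in mitochondrial enzymes of amino acid and folate metabolism. Aldh1l2, the mitochondrial enzyme that releases carbon dioxide from formyl-tetrahydrofolate with the production of NADPH, read 10.38, 10.38 and 10.56 at P20 and 10.50, 10.55 and 11.24 at P25, against 7.47, 8.56 and 8.69 at P9 and 8.34, 9.05 and 8.58 at P15. All 6 stage 4 arrays lay above all 6 stage 3 arrays, and the change was 2.15 ± 0.30 log2 units (SE), or 4.45-fold (adjusted p = 9.4e-05). At E18, E20, P0, P2 and P5 its means stayed between 7.45 and 8.16.

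Gpt2, the mitochondrial alanine transaminase, had the next largest change. Its levels were 11.74, 11.42 and 11.87 at P20 and 11.21, 11.73 and 11.41 at P25, against 9.80, 8.69 and 9.53 at P9 and 9.69, 10.33 and 9.95 at P15. The stages did not overlap, with a change of 1.90 ± 0.32 log2 units (adjusted p = 0.00058). A second, dimmer probe set of Gpt2 changed by 3.50 ± 0.43 log2 units and also passed.

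Aldh18a1, which makes the first committed intermediate of proline synthesis from glutamate, read 9.53, 8.81 and 8.46 at P20 and 8.83, 9.42 and 9.63 at P25, against 6.55, 7.30 and 6.96 at P9 and 7.63, 7.98 and 7.87 at P15. The stages again did not overlap, and the change was 1.73 ± 0.23 log2 units (adjusted p = 4.5e-05). Within stage 3 all P15 arrays were above all P9 arrays.

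Asns, which makes asparagine from aspartate and glutamine and is a standard readout of ATF4 activity, read 11.06, 10.87 and 10.70 at P20 and 11.13, 11.07 and 10.68 at P25, against 10.27, 8.81 and 9.52 at P9 and 9.999, 10.41 and 9.64 at P15. The change was 1.14 ± 0.26 log2 units (adjusted p = 0.0092), with no overlap. Its age means had been higher at P2 to P15, at 9.12 to 10.02, than at E18 to P0, at 8.40 to 8.88.

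Among the genes of serine and one-carbon metabolism, 4 of 6 were higher in stage 4. Besides Aldh1l2 they were Mthfd2, the mitochondrial methylene-tetrahydrofolate dehydrogenase (1.11 ± 0.32 log2 units, adjusted p = 0.034), Phgdh, which opens serine synthesis (0.71 ± 0.18, adjusted p = 0.016), and Psat1, its transaminase (0.80 ± 0.24, adjusted p = 0.037). Mthfd2 had a lowest, median and highest level of 7.25, 7.77 and 7.84 in stage 4, against 5.37, 6.65 and 7.11 in stage 3, without overlap, while Phgdh and Psat1 overlapped between the stages. Psph, the last enzyme of serine synthesis, differed by 0.24 ± 0.39 and Shmt2, the mitochondrial serine hydroxymethyltransferase, by 0.99 ± 0.35 log2 units (adjusted p = 0.081), and neither passed.

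Shmt2 had the lowest point of its course at P2. Mthfd2 also had its lowest age mean there, but through the third array, with readings of 6.92, 6.29 and 5.00. The other P2 arrays of Mthfd2 lay above its means of 6.16 at P0 and 6.26 at P5. The Shmt2 arrays were highest at the ends of the series, at 7.76, 8.79 and 9.47 at E18 and 9.10, 8.50 and 8.17 at P25. They were lowest at P2, at 6.41, 6.78 and 4.98, with the third array again the lowest. In between Shmt2 read 8.14, 8.01 and 7.30 at E20, 7.73, 7.58 and 6.55 at P0 and 7.11, 7.68 and 6.83 at P5. At P9 to P20 its age means lay between 6.95 and 7.37.

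Both regulators of signalling and translation that were called rose by like amounts. Trib3, a pseudokinase induced by ATF4 that binds and restrains it, had a lowest, median and highest level of 6.64, 7.05 and 8.36 in stage 4, against 5.37, 6.003 and 6.22 in stage 3. Eif4ebp1, which holds back cap-dependent translation when it is not phosphorylated, had 10.25, 10.49 and 11.48 in stage 4, against 8.62, 9.40 and 9.75 in stage 3. Each changed by 1.35 ± 0.21 log2 units (adjusted p = 0.00023 for Trib3 and 0.00032 for Eif4ebp1), and neither overlapped between the stages. The other probe sets of Trib3 also passed, at 1.45 ± 0.26 and 2.36 ± 0.57 log2 units. Sesn2, a leucine sensor upstream of mTORC1, and Vldlr, a lipoprotein receptor, differed by 0.13 ± 0.20 and 0.01 ± 0.28 and did not pass.

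Of the genes of transsulfuration and glutathione 0 of 3 passed in this comparison, where 4.09% of all probe sets were higher and 4.27% lower. Cth, the cystathionine lyase, differed by 0.02 ± 0.29 log2 units and Cbs, the cystathionine synthase, by 0.16 ± 0.32. Chac1, which breaks down glutathione and is used as a sensitive mark of ATF4 signalling, differed by -0.70 ± 0.43 log2 units (adjusted p = 0.33).

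Chac1 followed the ages in its own way. The embryonic stage stayed between 4.60 and 5.81, the P2 arrays read 6.52, 7.68 and 6.51, and the P5 arrays were spread over 4.66, 5.95 and 8.80. It then read 7.19, 7.51 and 8.12 at P9, 5.29, 5.21 and 5.81 at P15, 5.28, 5.47 and 5.19 at P20 and 6.02, 6.35 and 6.59 at P25. The ages of stage 3 did not overlap, and the highest age mean stood at P9, where none of the other members had theirs.

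**Figure D4:**
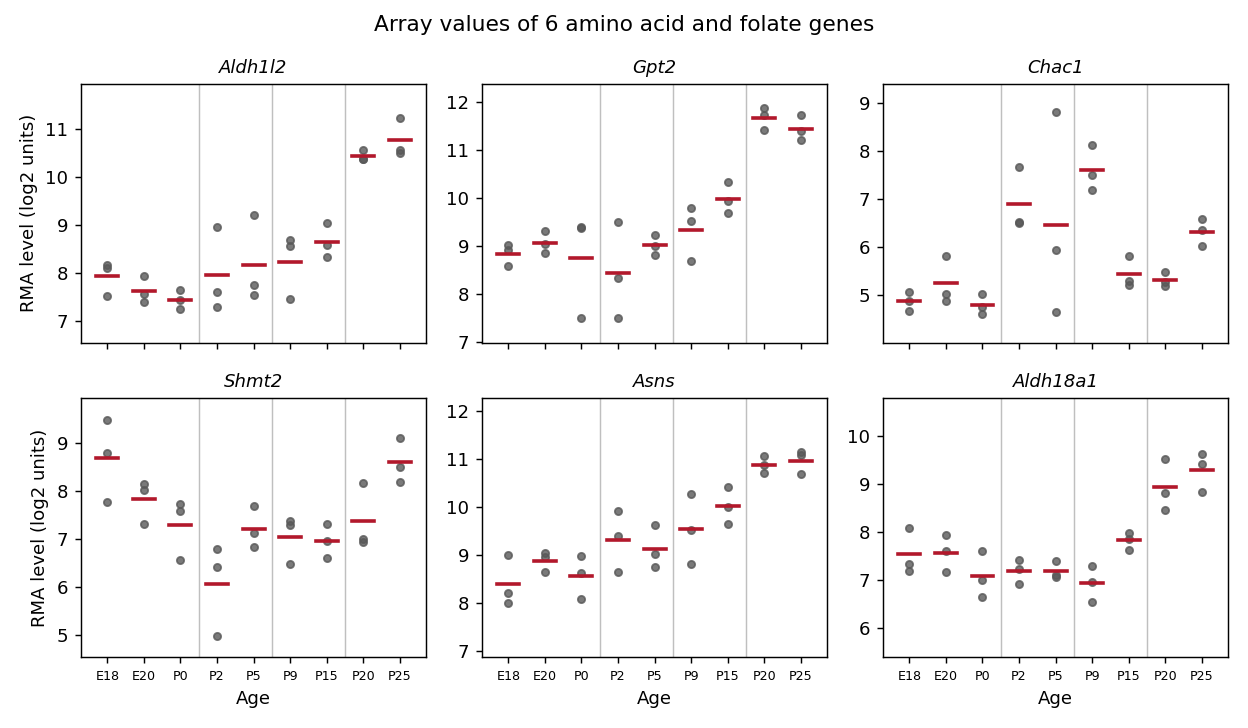
Level on each array in log2 units (vertical axis) at the 9 ages from E18 to P25 for the 6 other ATF4 genes with the widest spans of age means among those past the F test, with bars at the age means. Aldh1l2, Gpt2 and Aldh18a1 are highest at P20 and P25. Asns has higher age means at P2 to P15 than at E18 to P0. Shmt2 is lowest at P2, and Chac1 has its highest age mean at P9.

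Among the synthetases the clearest call was Lars1, the leucine enzyme. Its levels had a lowest, median and highest of 10.12, 10.36 and 10.70 in stage 4, against 8.81, 9.41 and 9.73 in stage 3, without overlap, and the change was 1.04 ± 0.17 log2 units, or 2.06-fold (adjusted p = 0.00051). Up to P15 its age means had stayed between 9.25 and 9.57. The call held under every alternative setting tried and without any single array, but a second, dimmer probe set of Lars1 differed by 0.17 ± 0.36 and did not pass.

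The other synthetases called were Gars1 for glycine (0.94 ± 0.17 log2 units, adjusted p = 0.0012), Nars1 for asparagine (0.77 ± 0.19, adjusted p = 0.013), Yars1 for tyrosine (1.01 ± 0.27, adjusted p = 0.023), Cars1 for cysteine (0.87 ± 0.26, adjusted p = 0.039) and Eprs1, the joined enzyme for glutamate and proline (0.62 ± 0.19, adjusted p = 0.047). All 5 overlapped between the stages. Gars1 had a lowest, median and highest level of 9.76, 10.04 and 10.35 in stage 4, against 8.56, 9.14 and 9.79 in stage 3, so that a single stage 3 array reached the late range. Yars1 had 8.07, 8.22 and 9.73 in stage 4, against 7.002, 7.55 and 8.16 in stage 3, and its highest late array stood well above the late median.

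The calls of Cars1, Eprs1 and Gars1 each rested on 1 of several probe sets. The 3 other probe sets of Cars1 differed by 0.43 to 0.67 log2 units and those of Eprs1 by -0.00 to 0.56, and none of these passed. A second probe set of Gars1 differed by 0.70 ± 0.54 and did not pass. Of the 27 fits that left out 1 array, the Eprs1 call was lost in 20, that of Cars1 in 9 and that of Yars1 in 4. Those of Gars1 and Nars1 held in all 27. Tars1, the threonine enzyme, was not called (0.61 ± 0.22, adjusted p = 0.082) although its stage 4 levels of 9.29, 9.45 and 10.03 (lowest, median and highest) lay above those of stage 3, at 8.55, 8.90 and 9.25.

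Nars1 and Cars1 show how the synthetases varied within a stage. Nars1 read 9.88, 9.76 and 9.52 at P20 and 10.44, 10.40 and 10.48 at P25, against 9.61, 8.31 and 9.06 at P9 and 9.78, 9.75 and 9.34 at P15. The P20 arrays overlapped those of P15, and the 3 P25 arrays were higher than every other array. Cars1 read 8.92, 8.65 and 8.43 at P20 and 9.29, 7.89 and 9.16 at P25, against 8.84, 7.45 and 8.23 at P9 and 7.25, 7.59 and 7.74 at P15, where 1 array at P9 lay as high as the late arrays and 1 at P25 among the P9 and P15 arrays.

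Aars1, the alanine enzyme, had the widest span of all synthetases and its low point at birth. It read 6.499, 5.96 and 6.82 at P0, below each of the other 24 arrays, and 7.79, 7.98 and 7.53 at E18. At P20 it read 8.69, 8.03 and 8.29 and at P25 8.50, 8.89 and 7.79, against 8.98, 7.25 and 7.22 at P9 and 8.21, 7.65 and 7.64 at P15. The stages overlapped, with the first P9 array above every late array, and the change of 0.54 ± 0.27 log2 units did not pass (adjusted p = 0.23). Without that P9 array it did, and without the second P0 array the F test of Aars1 no longer passed (adjusted p = 0.065).

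The other synthetases were not called in this comparison. Apart from Tars1 and Aars1 they were Mars1, Sars1, Iars1, Qars1, Farsa, Farsb, Hars1, Vars1, Kars1, Wars1 and Rars1, and their changes ran from -0.28 for the tryptophan enzyme Wars1 to 0.43 for the methionine enzyme Mars1 and the serine enzyme Sars1. The isoleucine enzyme Iars1 varied least in relation to its spread of all synthetases, with age means of 8.39, 8.28, 7.93, 8.21, 8.02, 7.93, 7.99, 8.43 and 8.21 in order of age. Among the other genes this was Got1, with 7.86, 7.73, 6.87, 7.09, 7.78, 7.38, 7.41, 8.31 and 8.13.

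**Figure D5:**
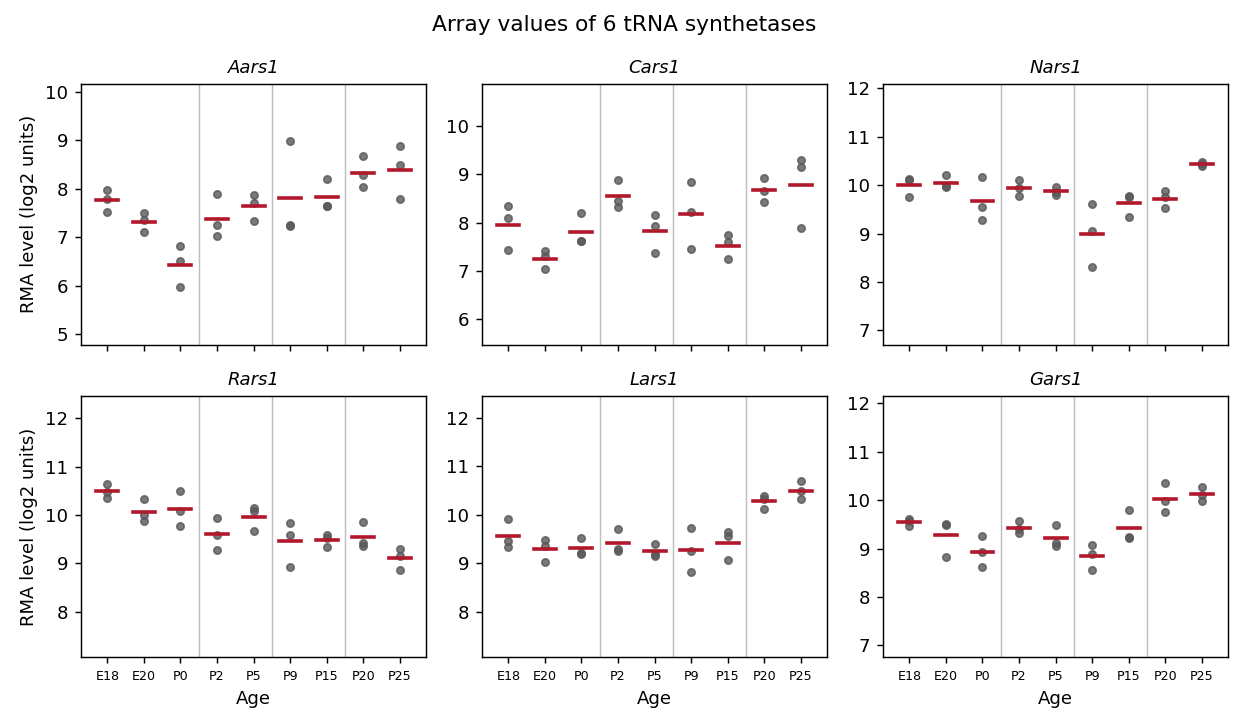
Level on each array in log2 units (vertical axis) at the 9 ages from E18 to P25 for the 6 synthetases past the F test, with bars at the age means. Lars1 and Gars1 are higher at P20 and P25, Nars1 is highest at P25, Aars1 is lowest at P0, and Rars1 is highest at E18 and lowest at P25.

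Set beside the promoters, 3 of the 7 synthetases with a match to the ATF4 element were called higher in stage 4 (Cars1, Nars1 and Yars1), with a median change of 0.61 log2 units over the 7. Of the 10 without a match 2 were called (Lars1 and Eprs1), with a median of 0.19. For the other genes it was 1 of 3 with a match (Trib3, median 0.83) and 5 of 11 without (median 0.71). These are descriptions of small groups and were not tested.

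Some of the calls in stage 4 against stage 3 were lost when P9 was left out. The muscle marker list (10 genes) had a mean level of 5.25 to 8.95 on the stage 4 arrays, against 9.35 to 12.25 on the P9 arrays and 4.67 to 7.40 on the P15 arrays, and 0 of the 10 markers were called by limma, also at an unadjusted p under 0.05. When stage 4 was set against P15 alone, an alternative chosen after seeing the data, 7 of the 15 genes were still called: Aldh1l2 (1.95 log2 units), Gpt2 (1.57), Aldh18a1 (1.29), Trib3 (1.15), Eif4ebp1 (1.07), Cars1 (1.20) and Lars1 (0.97). Asns (0.90), Mthfd2 (0.85), Yars1 (0.80), Gars1 (0.65), Psat1 (0.57), Nars1 (0.46), Phgdh (0.38) and Eprs1 (0.27) no longer passed. Over all probe sets this comparison called 814, against 2594 with P9. The synthetases called also fell to 3 without the second P9, the second P15 or the first P20 array.

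Markers of cell types moved with the same stages. The acinar list (10 genes) had a mean level of 12.35 to 12.74 on the stage 4 arrays and 9.14 to 10.66 on the stage 3 arrays, with 8 of 10 markers higher, so markers of the labelled cell type were present. The fibroblast list (10 genes) had 9.26 to 10.20 in stage 4 and 10.58 to 10.93 in stage 3, with 7 of 10 lower, and the myoepithelium list (6 genes) 6.46 to 8.22 in stage 4 and 8.53 to 9.30 in stage 3, with 2 of 6 lower. The list for lymphocytes and plasma cells (7 genes) had 6.22 to 6.61 in stage 4 and 4.46 to 5.24 in stage 3, with 3 of 7 higher. Of the remaining lists, epidermis and hair follicle (7 genes) had 3 of 7 lower, at 4.90 to 5.61 in stage 4, against 6.90 to 8.78 on the P9 arrays and 4.80 to 5.48 on the P15 arrays, cartilage and bone 2 of 9 lower, duct 2 of 7 lower, endothelium 1 of 9 lower, macrophage 1 of 9 lower and adipocyte 0 of 9 called by limma (1 higher and 3 lower at an unadjusted p under 0.05). In the list for lymphocytes and plasma cells the plasma cell gene Jchain read 10.39 to 11.74 in stage 4 and 3.80 to 6.20 in stage 3, while the T cell gene Cd3e read 3.57 to 3.97 in stage 4 and 3.36 to 3.84 in stage 3. For the GAPDH control, 3′ minus 5′ signal on the log2 scale, a sign of RNA quality, was 1.29 to 1.97 in stage 4 and 1.12 to 2.36 in stage 3. The fit with marker levels as covariates used only the muscle, the cartilage and bone, and the epidermis and hair follicle lists. It called 3 synthetases higher in place of 6. The part of the other lists in the changes above was not tested.

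The ages next to each other held fewer calls. In P20 against P15, 0 of the 36 genes passed, where 0.248% of all probe sets were higher and 0.11% lower. Unadjusted p was under 0.05 for 1287 higher and 1266 lower of all 31042 probe sets. Of the 36 genes 9 were higher and 1 lower at that level. The largest changes were those of Aldh1l2 (1.79 ± 0.43 log2 units, adjusted p = 0.079) and Gpt2 (1.69 ± 0.45, adjusted p = 0.13). The second, dimmer probe set of Gpt2 did pass there, at 3.68 ± 0.61 log2 units (adjusted p = 0.0036), without overlap. In P25 against P20 also 0 passed, where 0.232% of all probe sets were higher and 0.689% lower. At an unadjusted p under 0.05, 4 of the 36 genes were higher and 0 lower, against 2805 and 2067 of all 31042 probe sets. A dimmer probe set of Trib3 passed, at 1.99 ± 0.38 log2 units (adjusted p = 0.014), without overlap, and the third one did not (2.15 ± 0.81). Ordinary analysis of variance called 0 of the 36 genes in both by their brightest probe sets, and these comparisons rest on 3 arrays per age.

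The earlier steps of development had fewer calls than stage 4 against stage 3, among these genes and over all probe sets. In stage 2 against stage 1, 2 genes were higher, where 1.63% of all probe sets were, and 1 was lower, where 1.33% were. Chac1 had a lowest, median and highest level of 4.66, 6.51 and 8.80 in stage 2, against 4.60, 4.88 and 5.81 in stage 1 (1.71 ± 0.40 log2 units, adjusted p = 0.018), and Cbs had 3.51, 4.52 and 5.45 in stage 2, against 2.89, 3.41 and 3.65 in stage 1 (1.07 ± 0.29, adjusted p = 0.048). Shmt2 was lower, with 4.98, 6.81 and 7.68 in stage 2, against 6.55, 7.76 and 9.47 in stage 1 (-1.29 ± 0.32, adjusted p = 0.026). All 3 overlapped between the stages, and the Cbs call was lost in 19 and the Shmt2 call in 7 of the 27 fits that left out 1 array. The Chac1 call was lost without the second P2 array.

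In stage 3 against stage 2, 0 of the 36 genes passed, where 0.28% of all probe sets were higher and 0.48% lower. At an unadjusted p under 0.05, 5 genes were higher and 2 lower, against 2544 and 2273 of all 31042 probe sets. Ordinary analysis of variance called 0 of the 36 genes.

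Over the whole span, P25 was set against E18, the ends of the series. Here the median change over all probe sets was 0.24 log2 units. Changes in this comparison have this shift taken off unless said otherwise, although their adjusted p comes from the fit without that step. The shift was 0.03 among probe sets with a highest age mean of at least 5, and 0.12 after quantile normalisation. For brighter genes, taking off 0.24 can therefore make rises look smaller and falls larger. Of the 36 genes 11 were higher and 2 lower, where 20.1% of all probe sets were higher and 13.4% lower. Without the first E18 array the probe sets called numbered 6829 in place of 10393, of which 3465 were higher in place of 6243. The other ATF4 genes held 10 of the 11 increases, with a median of 1.03 log2 units relative to all probe sets, and 14 of 17 lay above the median of all probe sets. The synthetases had 1 increase and 2 decreases, with a median of 0.03, and 11 of 19 lay above the median of all probe sets. Before the correction the medians were 1.27 for the other ATF4 genes and 0.27 for the synthetases.

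Among the other ATF4 genes the largest changes were again in Aldh1l2 and Gpt2. Aldh1l2 read 10.50, 10.55 and 11.24 at P25, against 8.16, 7.52 and 8.11 at E18, a relative change of 2.59 log2 units (adjusted p = 6.2e-05). Gpt2 read 11.21, 11.73 and 11.41 at P25, against 9.03, 8.58 and 8.92 at E18, a relative change of 2.36 (adjusted p = 0.00025). Asns read 11.13, 11.07 and 10.68 at P25, against 7.99, 8.99 and 8.20 at E18, a relative change of 2.32 (adjusted p = 4.4e-05). None of these genes overlapped between the ages.

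Trib3 read 7.09, 8.36 and 7.34 at P25, against 5.52, 5.11 and 5.29 at E18, a relative change of 2.04 (adjusted p = 8.2e-06), and Aldh18a1 read 8.83, 9.42 and 9.63 at P25, against 7.33, 8.09 and 7.19 at E18, a relative change of 1.51 (adjusted p = 0.00047). Eif4ebp1 changed by 1.70 relative to all probe sets, Cth by 1.26, Cbs by 1.03, Sesn2 by 0.87 and Phgdh by 0.56. Cth, Cbs and Sesn2 had no call in stage 4 against stage 3. The age means of Cth were 2.81 at E18, 4.63 at P15 and 4.32 at P25, near the low end of the arrays' values, which ran from 1.43 to 14.63.

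The synthetases called between the ends of the series went both ways. Lars1 was higher, at 10.70, 10.32 and 10.48 at P25, against 9.34, 9.91 and 9.45 at E18, with a relative change of 0.69 log2 units (adjusted p = 0.0067). Rars1, the arginine enzyme, was lower, at 9.30, 8.87 and 9.15 at P25, against 10.48, 10.34 and 10.65 at E18, with a relative change of -1.63 (adjusted p = 0.00053). Rars1 had its highest mean at E18 and its lowest at P25, and its call held without any single array.

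Kars1, the lysine enzyme, was also called lower, at 5.92, 8.34 and 9.01 at P25, against 9.18, 9.91 and 9.82 at E18 (relative change -2.12, adjusted p = 0.015). The first P25 array lay more than 2 log2 units below the other P25 arrays, and without it the call was lost (adjusted p = 0.12). A second probe set of Kars1 differed by 0.21 ± 0.78 before the correction and was not called. A second probe set of the valine enzyme Vars1 was called higher (0.84 ± 0.30 before the correction, adjusted p = 0.034), where the brightest one was not called (-0.45 ± 0.31).

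The number of synthetases called higher in this comparison changed with the scaling. It was 1 with the values as deposited and 6 after quantile normalisation of the arrays. The acinar marker list had 10 of 10 genes higher at P25, with a median change of 7.49 log2 units before the correction. Fibroblast markers had 6 of 10 lower. On the first array of each of E18, E20 and P0 the muscle list stood at 11.4 to 12.1 and the epidermis list at 8.7 to 9.4, and on the second P5 array the epidermis list stood at 10.1. With these 4 arrays left out, 6 other ATF4 genes were called higher at P25 in place of 10.

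The genes around ATF4 were measured on the same arrays. Atf4 itself had a lowest, median and highest level of 11.18, 11.28 and 11.62 in stage 4, against 10.19, 10.53 and 11.12 in stage 3, without overlap, and changed by 0.81 ± 0.15 log2 units (adjusted p = 0.0019). Of the 15 kinases, factors and feedback genes of the ATF4 pathway 4 were higher in stage 4 and 0 lower, with a median change of 0.39. The other 3 were Eif2ak3, the gene of PERK (1.41 ± 0.23, adjusted p = 0.00053), Ppp1r15b, a subunit of a phosphatase of eIF2α (1.09 ± 0.17, adjusted p = 0.00024), and Nupr1, a small stress-induced chromatin protein (2.74 ± 0.57, adjusted p = 0.0042). Ddit3, the gene of the stress factor CHOP, differed by -0.30 log2 units and was not called (adjusted p = 0.63). Against P15 alone Atf4 (0.89) and Eif2ak3 (1.26) were still called, and Nupr1 (2.71) and Ppp1r15b (0.65) were not.

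Xbp1, a factor of the unfolded protein response that acts beside PERK and ATF4, had 11.31, 11.45 and 11.74 in stage 4, against 9.74, 10.82 and 11.24 in stage 3, without overlap (0.81 log2 units, adjusted p = 0.017). Against P15 alone Xbp1 differed by 0.44 log2 units and was not called (adjusted p = 0.31).

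Amino acid transporters known as ATF4 targets also had late increases. Of 9 measured, 4 were higher in stage 4 and 0 lower, with a median change of 0.79 log2 units. They were Slc1a4 for neutral amino acids (1.66 ± 0.46, adjusted p = 0.028), Slc7a1 for cationic amino acids (1.39 ± 0.21, adjusted p = 0.00024), Slc6a9 for glycine (1.09 ± 0.22, adjusted p = 0.0029) and Slc3a2, the shared heavy chain of several exchangers (0.93 ± 0.26, adjusted p = 0.028). Against P15 alone Slc7a1 was called, at 1.55 log2 units, and the other 3 were not.

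Mitochondrial synthetases load the transfer RNAs of the mitochondrion and come from genes of their own. Of 13 measured out of 17 listed, 0 were called in stage 4 against stage 3. There, 4.09% of all probe sets were higher and 4.27% lower. The median change of the 13 was -0.20 log2 units. At an unadjusted p under 0.05, 4 were lower and 0 higher, against 3240 and 4353 of all 31042 probe sets. In P25 against E18, 3 were lower, where 13.4% of all probe sets were. They were Hars2 (-2.17 relative to all probe sets), Tars2 (-1.62) and Iars2 (-1.43). The Hars2 call held in all 27 fits that left out 1 array and under all 11 other settings, while that of Tars2 was lost in 4 of the 27 fits and 5 of the 11 settings and that of Iars2 in 5 and 4. Whether the cytosolic and mitochondrial lists differ was not tested. No mitochondrial synthetase among the 16 with a promoter in the table held the letters of the ATF4 element.

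Other genes of translation and of the folate cycle came in short lists. In stage 4 against stage 3, 4.09% of all probe sets were higher and 4.27% lower. Whether these lists differ from that share was not tested. Of the scaffold proteins that hold cytosolic synthetases in a complex, Aimp1, Aimp2 and Eef1e1, 0 of 3 were called in stage 4 against stage 3. Of 5 elongation factors 0 were called in that comparison, also at an unadjusted p under 0.05, with a median change of -0.10 log2 units. In P25 against E18, 3 of the 5 were lower, where 13.4% of all probe sets were. Of 7 enzymes of the folate and methionine cycles not taken as ATF4 targets 1 was called, the thymidylate synthase Tyms, which was lower in stage 4 by 2.08 ± 0.40 (adjusted p = 0.0021) and serves DNA synthesis.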

How the data were processed

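Total RNA of laser-captured parotid acinar cells was amplified with a whole-transcriptome kit and run on Affymetrix Rat Genome arrays. The labels give 1.5 and 4.5 ng as input without saying which arrays had which, so this was not tested. The authors deposited log2 values from robust multi-array averaging (RMA, version not given in the sources used here). These were used as deposited, since they are background corrected and normalised between arrays. Of 31099 probe sets, 57 controls were left out and 31042 tested. Array medians lay between 5.91 and 6.13 and correlations within an age between 0.873 and 0.962. The columns not matched to a sample numbered 0. The number of arrays limits the precision.

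Genes were named through the platform annotation, from probe sets with 1 symbol. Contrasts were taken in limma 3.58.1 (R 4.3.3) from a fit of 9 age means with eBayes, leaving 18 residual degrees of freedom, and two-sided p-values were adjusted by Benjamini and Hochberg over all probe sets, with a threshold of 0.05. On simulated data for stage 4 against stage 3 (31042 probe sets), 31 of 100 changes of 1 log2 unit and 81 of 100 of 2 log2 units were recovered, with 9 false calls. Only these probe sets were changed, against 2594 called in the data. The adjustment was therefore stricter in the simulation, and its shares do not carry over to the data. All listed genes could be named, with array values for the widest spans past the F test in each list (4 synthetases, 6 others). Members and lists were chosen with earlier results of these data known. Motifs and figures were made with Python 3.11.15. Of the promoter matches, 1 is not reported here.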

Additional observations from a re-analysis of the deposited data

How the results depend on the processing

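Alternatives were other scalings, array weights, a level filter, a replicate block, ordinary analysis of variance, an intensity trend, 4 arrays left out together (the first of E18, E20 and P0 and the second of P5, high in muscle or epidermis markers), marker covariates, only the ages compared, the mean of all probe sets per gene and, added after seeing the data, P9 left out. Of the called or uncalled results of single genes under these and under the omission of each array, 15744 kept their side of the threshold, 370 were lost, 98 were gained and 0 changed direction while called. They came from 427 pairs of a gene and a test, most of them not called in the main fit. The share lost among called results was therefore larger than these totals show. The causes were not tested.

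For the F test, 12 genes were called without the 4 arrays and 11 with covariates in place of 19, with 3 of the synthetases without the 4 arrays and 7 of the other genes with covariates. For P25 against E18, 8 were called with covariates in place of 13. Synthetases called higher there numbered 6 after quantile normalisation, 3 by ordinary analysis of variance, 2 with the mean of all probe sets, 0 with covariates and 0 with only the ages compared. Those called lower numbered 1 with only the ages compared and 1 with the mean of all probe sets, and other genes higher 6 without the 4 arrays and 6 with covariates. Stage 2 against stage 1 had 1 call without the 4 arrays, with covariates and with only the ages compared, and stage 3 against stage 2 had 2 with array weights. Stage 4 against stage 3 had 9 calls with only the ages compared and 7 without P9, with 3 synthetases under covariates, 3 with the mean of all probe sets, 2 with only the ages compared and 2 without P9, and 5 other genes without P9. P20 against P15 had 3 calls with array weights and 2 with the mean of all probe sets, and P25 against P20 had 1 with the mean of all probe sets.

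Leaving out 1 array gave 15 to 21 calls for the F test (5 to 8 synthetases, 9 to 13 others), 11 to 14 for P25 against E18 (1 to 2 synthetases higher, 1 to 3 lower, 8 to 11 others higher), 1 to 3 for stage 2 against stage 1, 0 to 1 for stage 3 against stage 2, 10 to 15 for stage 4 against stage 3 (3 to 6 synthetases, 7 to 9 others), 0 to 1 for P20 against P15 and 0 to 0 for P25 against P20. Synthetases lower at P25 numbered 1 without the first P25 array.

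Correlations of deviations between same-numbered arrays of different ages had a median of 0.014 and ran from -0.108 to 0.459, against -0.279 to 0.141 for different numbers. Since not every same-numbered pair deviated together and the labels tie no number to a litter or day, the numbers were not taken to pair the arrays, although some same-numbered arrays were alike. With the replicate number as a block 20 genes passed the F test, 13 P25 against E18, 2 stage 2 against stage 1, 0 stage 3 against stage 2, 14 stage 4 against stage 3, 0 P20 against P15 and 0 P25 against P20, and 16 of 27 arrays correlated best with their own number.

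Over all probe sets, counts moved by more than 1.5 times from 10393 to 4717 with covariates, 6293 without the 4 arrays, 6922 with array weights, 6829 without the first E18 array and 2267 with only the ages compared for P25 against E18, and from 2594 to 1559, 1331 and 814 with covariates, only the ages compared and P9 left out for stage 4 against stage 3. With arrays centred on their medians the median change of all probe sets in stage 4 against stage 3 was 0.15, and 1456 of 2550 calls were higher in place of 1269 of 2594. The F test called 4894 without the 4 arrays and 3865 with covariates in place of 7611.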
